A study of Mus musculus with 20 samples.

Results

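WT cardiomyocytes (CMs) were compared with WT endothelial cells (ECs), both isolated from mouse hearts after transverse aortic constriction (TAC). The comparison uses 7 of the 20 samples of the series, 3 WT CM samples labelled 1, 2 and 6 and 4 WT EC samples labelled 31, 32, 34 and 35, chosen by genotype and cell type as the labels give them. In TAC a ligature on the aortic arch makes the left ventricle pump against a higher pressure. It was performed in mice of 8 to 10 weeks, both sexes were used in the study, and all 7 samples were taken after 2 weeks of TAC. No sham-operated samples were analysed here, so no value here can be read as an effect of TAC. CMs were obtained by Langendorff perfusion with an enzyme solution and sedimentation, and ECs by magnetic beads against CD146, an adhesion molecule of the endothelial surface, after digestion of minced tissue. The study states in general terms that its experiments had biological replicates, but the sources used here tie no sample to an animal and do not give the strain of the WT samples, so part of the spread between samples may be technical.

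CMs are the contractile cells of the heart. Their sarcomeres shorten when calcium is released from the sarcoplasmic reticulum, and mitochondria that burn mostly fatty acids supply the ATP for each beat. ECs line the vessels that run beside every myocyte. They form the barrier between blood and muscle, pass fatty acids on to the myocyte, control clotting and vessel tone, and display adhesion molecules and antigens to leukocytes. The cell types signal to each other, for example through VEGF made by the myocyte and received on the endothelium.

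The authors deposited log2 CPM (read counts scaled to a common library total, on a log2 scale) per transcript, in 1 table for each cell type, and normalized and filtered the tables separately. Transcripts present in both tables were joined, 1 transcript per gene, that of the highest mean, was kept, the 17 mitochondrially encoded genes were removed and every sample was rescaled to a total of 1000000 CPM. This left 12326 genes. All levels below are log2 CPM after this rescaling, listed in the order CM 1, 2 and 6 and EC 31, 32, 34 and 35, and all differences are the mean of the CM samples minus the mean of the EC samples on the log2 scale, where 1 is a 2-fold difference. A gene was called higher or lower when the CM and EC samples did not overlap and the difference was at least 2, which is 4-fold. Cell type, table and isolation procedure cannot be told apart in this design, and a test between tables that were normalized separately would compare all of these at once, so no p-value is given. An exact permutation test of 3 against 4 samples could not go below a two-sided p of 0.0571 in any case. In bulk samples, fewer cells of a type and less RNA per cell cannot be told apart either.

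Effective library sizes, read from the smallest steps between low values, were 17.0 to 20.2 M reads in WT CMs and 45.1 to 54.8 M reads in WT ECs, so low values are less precise in CMs. Mitochondrially encoded transcripts took 30.0%, 30.0% and 15.5% of the CPM of all transcripts in CMs and 2.74% to 4.54% in ECs. With 1 transcript per gene they took 47.4%, 47.4% and 27.4% in CMs and 5.35% to 8.76% in ECs. WT CM 6 stood apart from its group. Its Spearman correlation across genes was 0.791 and 0.793 with the other CM samples, which correlated with each other at 0.979, while the EC samples correlated with each other at 0.988 to 0.994. CM 6 lay at least 2 below the mean of the other CM samples in 2902 genes and at least 2 above it in 10, and the deviation moved with the genomic length of the gene. Its median was 0.29 over the 1529 genes spanning up to 5 kb and -1.37 over the 2099 genes spanning more than 80 kb. The sexes were mixed within the groups by sex-linked transcripts. *Ddx3y*, a Y-linked helicase gene, lay at -2.46, 5.75 and 2.03 in CMs and 5.83, 5.79, -2.35 and -1.45 in ECs.

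Some deposited values look as if reads had been counted over the whole genomic span of a gene model on either strand. The clearest case was *Cx3cr1*, a chemokine receptor of macrophages, whose model spans chr9:119901616-120068283 on the minus strand of mm10. It lay at 9.52, 9.67 and 10.31 in CMs and 9.84, 9.73, 10.02 and 9.87 in ECs. The summed CPM of the 3 other genes inside that span, *Xirp1*, *Csrnp1* and *Gorasp1*, came within 0.19 of these values in every sample. *Xirp1*, a gene of the intercalated disc, lay at 9.31, 9.48 and 10.18 in CMs and 4.49 to 5.38 in ECs, whereas *Csrnp1*, an immediate early gene, lay at 4.16 to 4.77 in CMs and 9.45 to 9.76 in ECs. The value under the name *Cx3cr1* was therefore almost wholly accounted for by a muscle gene in CMs and by another gene in ECs, and it was not read as *Cx3cr1*. Another *Cx3cr1* model was not kept because its mean was lower. As deposited, that model lay at -2.46, 0.17 and -1.29 in CMs and 1.33 to 2.88 in ECs. Of the genes compared, 3009 (24.4%) overlap another compared model that reaches 50% or more of their value in a sample. Among genes named below, *Actc1*, *Nppa*, *B2m*, *Cav1*, *Gnas* and *Timp3* share nearly all of their value with an overlapping model, and their level is uncertain to that extent. Other named genes overlap a model at the 50% limit. Of 233 named genes called, 207 remained when all genes that share a span in this way were left out.

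Over all genes, 1181 of 12326 (9.58%) were called higher and 3290 (26.7%) were called lower in CMs. These shares are the background for every count below. Without the 4-fold condition, 24.1% of the genes were higher and 50.5% lower in every CM sample than in every EC sample. The median difference was -0.74 with quartiles of -2.12 and 0.52. Of the calls, 26.4% were higher calls, or 34.2% without CM 6. This split depends on the scaling. With the samples centred on their median instead, the median difference was -0.14, with 1782 genes called higher and 2243 called lower, and 44.3% of the calls were higher calls. Differences of at least 6 were reached by 63 genes in the higher and 34 in the lower direction. At the other end, 2432 genes (19.7%) differed by less than 0.5. The median SD between samples was 0.459 in CMs and 0.122 in ECs. Of 233 named genes called, 60 moved by more than 1.5-fold without CM 6. Without CM 6 the median SD in CMs was 0.173, and 1314 genes were called higher and 2532 lower, of which 1121 and 2470 had the same call with all samples.

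**Figure D1:**
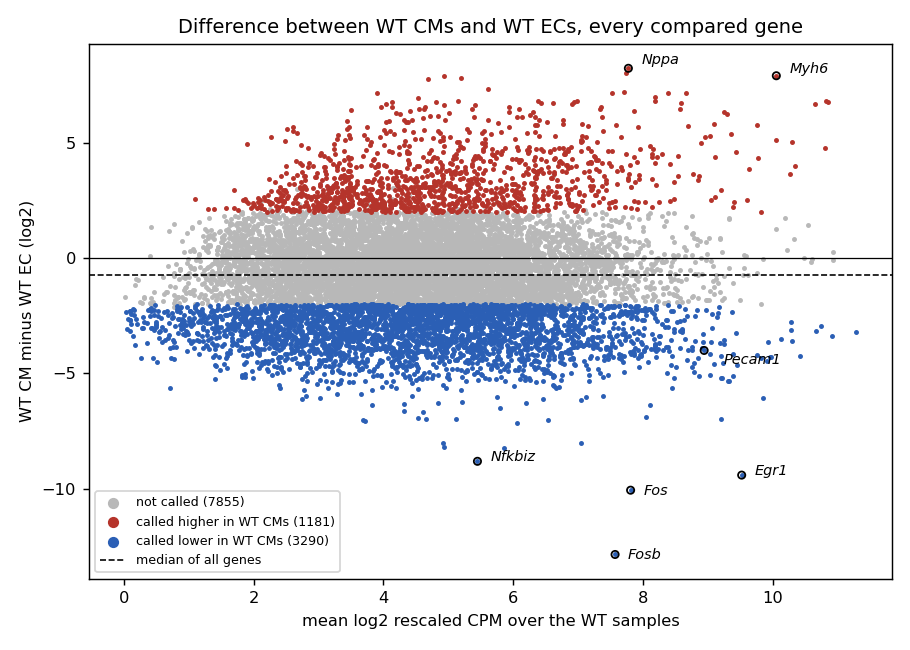
Each of the 12326 genes is a point, with its mean level over all 7 samples on the x axis (log2 CPM) and the difference of WT CMs minus WT ECs on the y axis (log2). The 1181 genes called higher in CMs and the 3290 called lower are colored, the 7855 not called are grey, and the cloud is centred below 0 at a median of -0.74.

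The labelled cell types were borne out by their defining genes. *Myh6*, the adult cardiac myosin heavy chain, at chr14:54941921-54966641 on the minus strand of mm10 (GENCODE vM21), lay at 14.88, 14.56 and 14.29 in CMs and 5.83, 6.43, 7.62 and 6.79 in ECs. The difference was 7.91 (SE 0.41), and no CM sample came near any EC sample. *Pecam1*, an adhesion molecule of endothelial junctions at chr11:106654217-106715265 on the minus strand, lay at 6.28, 7.19 and 6.49 in CMs and 10.64, 10.76, 10.63 and 10.63 in ECs. It was lower in CMs by -4.01 (SE 0.28), again without overlap. All 17 compared cardiomyocyte markers were called higher, with a median of 6.75 and a range of 5.29 to 8.23, and all 20 endothelial markers were called lower, with a median of -4.19 and a range of -5.14 to -3.29. The mean level of the cardiomyocyte list was 12.39, 12.40 and 12.19 in CMs and 4.55, 5.16, 6.45 and 6.12 in ECs, and that of the endothelial list was 4.95, 5.91 and 4.62 in CMs and 9.45, 9.49, 9.36 and 9.45 in ECs. Neither list was at the lowest level in the other cell type, and the share of each cell type in the preparation of the other was not tested.

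**Figure D2:**
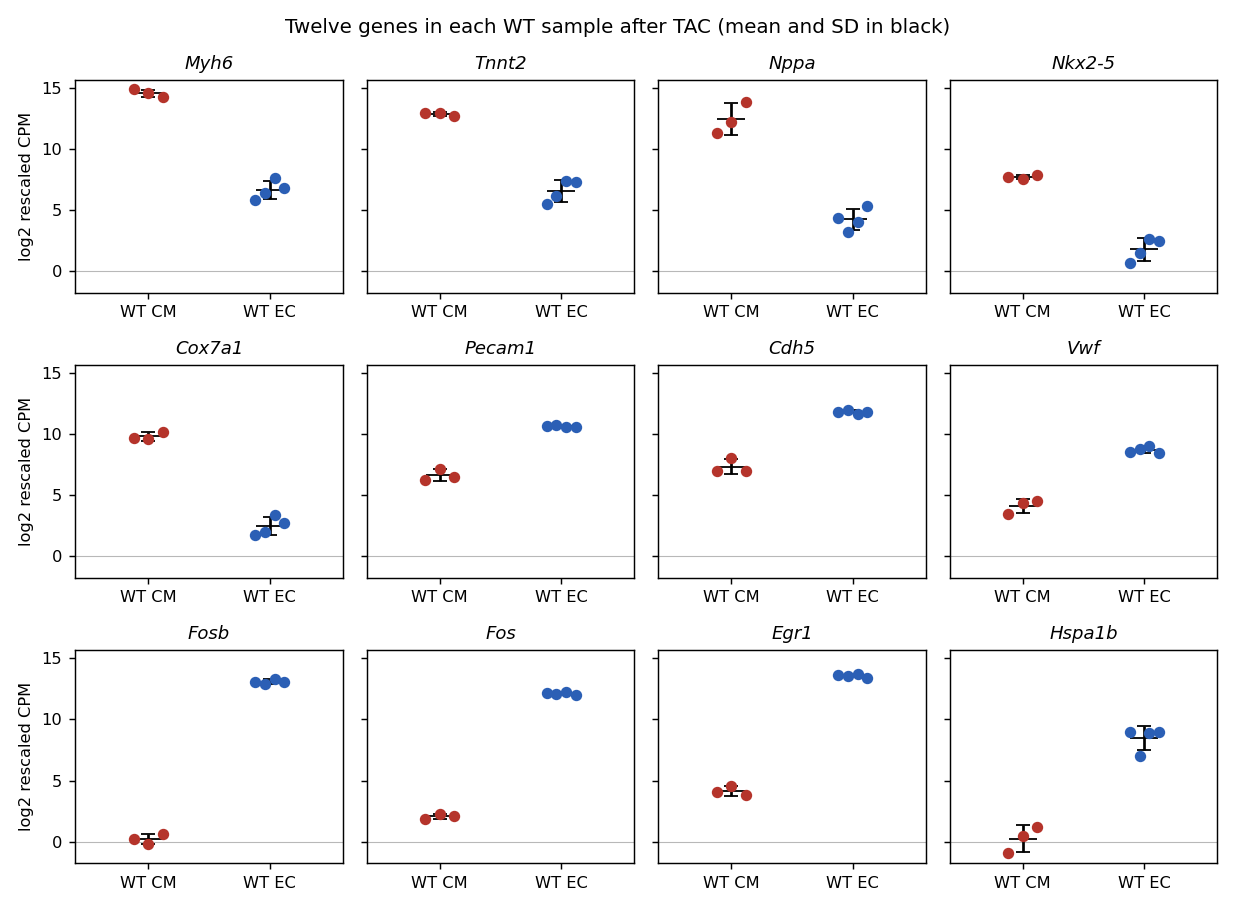
Levels (log2 CPM after rescaling) of 12 genes, with the 3 WT CM samples on the left and the 4 WT EC samples on the right of each panel, and the mean and SD in black. *Myh6*, *Tnnt2*, *Nppa*, *Nkx2-5* and *Cox7a1* lie higher in every CM sample, and *Pecam1*, *Cdh5*, *Vwf*, *Fosb*, *Fos*, *Egr1* and *Hspa1b* lie lower in every CM sample, from a difference of -4.01 for *Pecam1* to -12.86 for *Fosb*.

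Markers of the other cardiac cells that could be compared were mostly lower in CMs. Of 7 epicardial markers, however, 4 were present in the CM table only, and the 1 compared was called lower. Of 14 fibroblast markers 8 were called lower (13 with the values as deposited) and 0 higher (median -2.41), of 13 pericyte and smooth muscle markers 9 were called lower (5 with median centring) and 1 higher (median -2.25), and of 12 macrophage markers, *Cx3cr1* left out after its values were seen, 12 were called lower (median -3.31). The exception among the pericyte and smooth muscle markers was *Myocd*, a coactivator of serum response factor that cardiac muscle also uses, with a difference of 2.36. The mean of the fibroblast list was 4.10, 4.97 and 3.65 in CMs and 6.37, 6.49, 6.17 and 6.98 in ECs, and that of the pericyte and smooth muscle list was 4.59, 5.34 and 4.37 in CMs and 7.37, 7.25, 7.56 and 7.16 in ECs. *Rgs5*, a pericyte gene, lay at 8.05, 8.70 and 3.62 in CMs and 11.25 to 11.65 in ECs. *Myh11*, the smooth muscle myosin, lay at 3.40, 4.27 and 1.23 in CMs and 8.95 to 9.37 in ECs. CM 6 was the lowest sample in both, and the differences of -4.65 and -6.10 were -3.07 and -5.24 without it. CD146 is also carried by pericytes and smooth muscle cells, and their share in the EC samples was not tested.

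Red blood cell transcripts separated the CM samples from each other. *Hba-a1*, an alpha-globin gene, lay at -2.46, 1.34 and 6.03 in CMs and 7.53, 7.88, 8.29 and 7.87 in ECs, and *Hbb-bs*, a beta-globin gene, at -2.46, 0.62 and 5.30 in CMs and 9.03 to 9.78 in ECs. CM 6 held the highest globin level of the CM samples and CM 1 was at the lowest value that the table holds. The differences, -6.25 for *Hba-a1* and -8.23 for *Hbb-bs*, became -8.45 and -10.31 without CM 6. *Lyve1*, a receptor of lymphatic endothelium, was lower in CMs by -3.46. *Prox1*, which specifies lymphatic ECs and is also made by myocytes, lay at 6.09, 6.37 and 3.04 in CMs and 3.26 to 3.96 in ECs and overlapped through CM 6, with a difference of 1.54 that became 2.60 and a higher call without that sample.

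**Figure D3:**
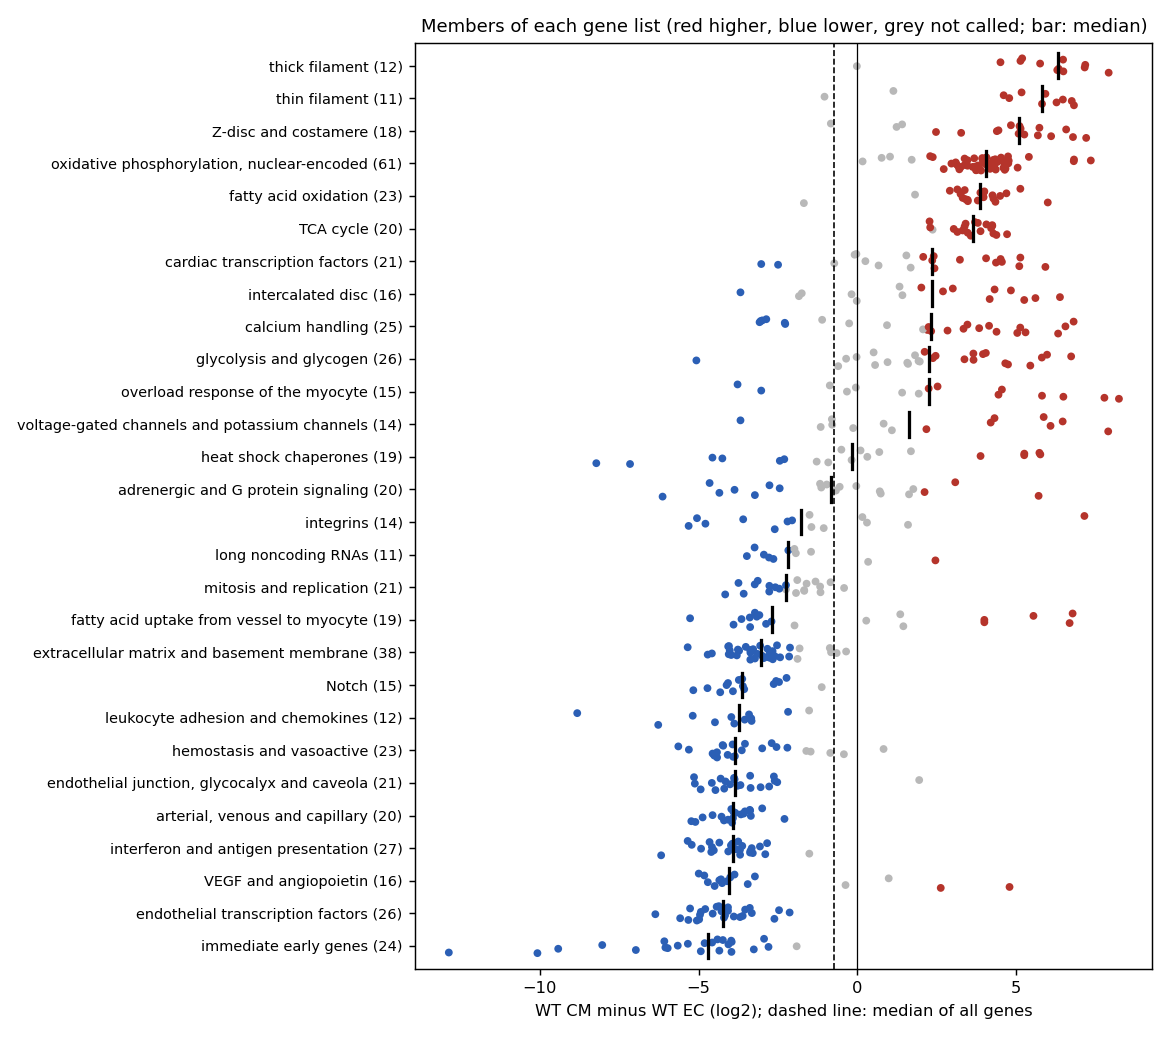
Differences of WT CMs minus WT ECs (log2, x axis) of the members of each gene list other than the cell type marker lists, 1 list a row with its number of compared genes, sorted by the list median (black bar). Red points were called higher in CMs, blue points lower and grey points not called, and the dashed line marks the median of all genes at -0.74. Of the lists drawn, the thick filament (median 6.31) and thin filament (5.81) stand furthest right, and immediate early genes (-4.69) and endothelial transcription factors (-4.24) furthest left.

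The contractile apparatus was higher in CMs almost throughout. Of 12 thick filament genes 11 were called higher and 0 lower (median 6.31), of 11 thin filament genes 9 (median 5.81), and of 18 Z-disc and costamere genes 15 (median 5.09), against a background of 9.58% higher calls. In the thick filament, *Mybpc3* (myosin-binding protein C, chr2:91118144-91136516) lay at 12.39, 12.29 and 12.78 in CMs and 4.17, 4.99, 6.27 and 5.81 in ECs. *Myl3*, the ventricular essential light chain, lay at 12.64, 12.40 and 13.22 in CMs and 4.24, 5.39, 6.56 and 6.21 in ECs. The difference was 7.17 (SE 0.49) for *Mybpc3* and 7.16 (SE 0.57) for *Myl3*, and in both every CM sample stood far above every EC sample. *Myl4*, the atrial essential light chain, was the member not called, at 3.01, 2.98 and 3.06 in CMs and 2.44 to 3.59 in ECs.

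In the thin filament, the troponin genes *Tnni3*, *Tnnc1* and *Tnnt2* were higher by 6.75, 6.47 and 6.27. *Tnnt2* (chr1:135836386-135852260), which anchors the troponin complex to tropomyosin, lay at 12.98, 12.91 and 12.73 in CMs and 5.54, 6.19, 7.38 and 7.32 in ECs. *Actc1*, the cardiac actin, lay at 14.45, 14.59 and 15.14 in CMs and 6.73, 7.53, 8.85 and 8.52 in ECs. *Tpm2*, a tropomyosin of slow and smooth muscle, was not called, at 5.25, 5.24 and 5.22 in CMs and 6.11 to 6.52 in ECs. *Nebl*, the cardiac nebulette, was not called either, since CM 6 lay at 3.48 and the other CM samples at 8.20 and 8.24, against 5.26 to 5.89 in ECs. Without CM 6 its difference of 1.13 became 2.71 and a higher call. At the Z-disc, *Actn2* (alpha-actinin, which cross-links actin), *Csrp3* (a stretch sensor), *Fhl2* (a LIM adaptor) and *Tcap* (which caps titin) were higher by 7.20, 6.79, 6.57 and 6.10. *Actn2* lay at 11.58, 11.62 and 12.28 in CMs and 3.54, 4.34, 5.66 and 4.95 in ECs. *Vcl*, the vinculin of all adherent cells, was at 7.64, 7.50 and 5.73 in CMs and 7.68 to 7.90 in ECs and was not called. In *Tnnt2*, *Actc1* and *Actn2* EC 31 was the lowest and EC 34 the highest EC sample, as in the mean cardiomyocyte marker level. The mean of the Z-disc and costamere list, at 4.83, 5.36, 5.92 and 5.97 in ECs, was highest in EC 35.

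Many sarcomere genes are bound by serum response factor at the CArG box. The 250 bases upstream of the RefSeq transcription start are shown here for 3 sarcomere genes that hold the motif, to let the sequence be read beside the levels (GRCm38.p6, which is mm10, 5′ to 3′ on the strand of the gene, credited to RefSeq). Capitals mark the CArG box and, where present, TATAAA, both searched on either strand.
*Acta1* promoter, chr8:123894776-123895025, minus strand: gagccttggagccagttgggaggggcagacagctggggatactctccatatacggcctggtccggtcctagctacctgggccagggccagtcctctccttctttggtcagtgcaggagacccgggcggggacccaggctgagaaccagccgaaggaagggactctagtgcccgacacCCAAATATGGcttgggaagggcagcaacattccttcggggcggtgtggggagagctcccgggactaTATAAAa
*Actc1* promoter, chr2:114052876-114053125, minus strand: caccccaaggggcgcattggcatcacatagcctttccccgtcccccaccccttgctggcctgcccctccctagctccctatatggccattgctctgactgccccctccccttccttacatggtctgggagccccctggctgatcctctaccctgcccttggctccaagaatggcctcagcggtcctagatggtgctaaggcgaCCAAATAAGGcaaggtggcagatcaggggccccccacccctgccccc
*Myl3* promoter, chr9:110763428-110763677, plus strand: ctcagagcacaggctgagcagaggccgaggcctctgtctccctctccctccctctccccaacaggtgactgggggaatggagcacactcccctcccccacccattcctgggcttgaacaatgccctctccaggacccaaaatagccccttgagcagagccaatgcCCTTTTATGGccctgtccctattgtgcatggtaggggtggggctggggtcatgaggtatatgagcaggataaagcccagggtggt
Counted from the transcription start, the CArG box begins at -73 in *Acta1*, -47 in *Actc1* and -85 in *Myl3*. Of the genes compared, 8804 (71.4%) had a RefSeq start within 500 bases of the 5′ end of the model. A CArG box was found in 15 of 868 such promoters of genes called higher (1.73%), 20 of 2246 of genes called lower (0.890%) and 96 of all 8804 (1.09%). It was found in 2 of 9 thick filament, 2 of 10 thin filament and 4 of 14 Z-disc promoters. The MEF2 site was found in 31 (3.57%) of the promoters of genes called higher, 35 (1.56%) of those called lower and 140 (1.59%) of all. A match is a description of the letters and no evidence of binding in these cells.

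Calcium handling genes were mostly called higher in CMs. Of 25 genes, 15 were called higher and 6 lower (median 2.32), against a background of 9.58% higher and 26.7% lower calls. The lower calls were no more frequent than over all genes. *Ryr2*, the ryanodine receptor that releases calcium from the sarcoplasmic reticulum, lay at 11.16, 10.86 and 7.73 in CMs and 2.54, 2.96, 4.65 and 4.24 in ECs, a difference of 6.32 (SE 1.21). *Atp2a2*, the SERCA2 pump at chr5:122453514-122501895, lay at 13.80, 13.21 and 12.53 in CMs and 7.98, 8.0, 8.54 and 8.07 in ECs, and *Pln*, its inhibitor phospholamban, at 13.11, 12.71 and 10.36 in CMs and 5.89 to 7.71 in ECs. *Hrc* and *Srl*, which encode calcium-binding proteins of the reticulum, were higher by 6.55 and 6.81. The 6 lower genes included *Itpr1* and *Itpr2* (inositol trisphosphate receptors, which also release calcium from the reticulum, -3.04 and -2.99), *Stim1* (the sensor of store-operated entry, -2.87), *Bin1* (-3.08) and *Camk2b* (-2.27). *Bin1* shapes T-tubules in muscle and membranes in other cells, and it lay at 2.64, 2.60 and 2.39 in CMs and 5.58 to 5.64 in ECs. Without CM 6, the lowest CM sample, the difference was 7.41 for *Ryr2*, 6.14 for *Pln*, -2.18 for *Itpr1* and -2.05 for *Itpr2*. The number of genes called lower was 5 without CM 6 and 4 with median centring, under which *Camk2b* was not called. *Camk2d*, the main CaMKII isoform of the heart, lay at 7.13, 7.16 and 5.10 in CMs and 5.42 to 5.68 in ECs, so CM 6 fell below the EC samples and the gene was not called (difference 0.93, or 1.61 without CM 6).

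Of 23 channel genes listed, 14 were compared, while 7 were present in the CM table only and 2 in the EC table only. Of the 14 compared, 7 were called higher and 1 lower (median 1.63). *Kcnip2*, a subunit of the transient outward current, *Kcnj11*, the pore of the ATP-sensitive potassium channel, and *Kcnk3*, a background potassium channel, were higher by 6.46, 6.08 and 5.86. *Kcna5*, which carries a potassium current in atria and in vessels, was the lower one, at 4.25, 4.43 and 4.66 in CMs and 7.70 to 8.51 in ECs. Of 16 intercalated disc genes 9 were called higher and 1 lower (3 with the values as deposited) (median 2.35). *Pkp2* and *Dsg2*, of the desmosome, were higher by 6.38 and 5.60, and *Cdh2*, the cadherin that couples myocytes, by 5.25. *Tjp1*, which is shared with endothelial tight junctions, was lower by -3.68. Without CM 6 the difference of *Tjp1* was -2.24 and that of *Dsg2* was 6.70. The gap junction gene *Gja1* was at 8.40, 8.53 and 4.81 in CMs and 7.03 to 7.42 in ECs. CM 1 and CM 2 lay above and CM 6 below every EC sample, so the difference of -0.02 became 1.20 without CM 6, and the gene was called in neither case.

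Genes of the overload response of the myocyte were compared as levels only, since no sham-operated samples were analysed here. Of 15 genes 8 were called higher and 2 lower (median 2.24), and 1 lower without CM 6, when *Mef2c* was not called. *Nppa*, which encodes atrial natriuretic peptide, at chr4:148000722-148002079, lay at 11.36, 12.20 and 13.89 in CMs and 4.38, 3.26, 4.01 and 5.35 in ECs. Its difference of 8.23 (SE 0.86) was the largest of the named genes in the higher direction, and CM 6 was the highest sample, without which it was 7.53. *Nppb*, which encodes B-type natriuretic peptide, lay at 8.48, 9.06 and 9.83 in CMs and 0.31, 0.78, 1.87 and 2.43 in ECs. *Acta1*, the skeletal actin of the fetal program, lay at 11.12, 12.72 and 13.38 in CMs and 6.04 to 7.16 in ECs. *Myh7*, the slow myosin heavy chain of that program, lay at 9.88, 10.06 and 9.48 in CMs and 2.58 to 4.72 in ECs. *Hmox1*, heme oxygenase, was lower by -3.77. *Ccn2*, a matrix growth factor, lay at 7.13, 6.45 and 7.69 in CMs and 7.23 to 7.73 in ECs and overlapped.

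Genes of mitochondrial energy metabolism were higher in CMs. Of 61 nuclear-encoded genes of oxidative phosphorylation 57 were called higher and 0 lower (median 4.06), and the list mean was 8.76, 8.61 and 8.77 in CMs and 4.65, 4.67, 4.99 and 4.78 in ECs. The 3 largest differences belonged to the heart and muscle forms of cytochrome c oxidase subunits, *Cox7a1* with 7.35, *Cox8b* with 6.82 and *Cox6a2* with 6.81. *Cox7a1* lay at 9.68, 9.58 and 10.20 in CMs and 1.79, 1.98, 3.38 and 2.74 in ECs. The 4 genes not called were *Cox6a1*, *Cox8a*, *Atp5g2* and *Atp5l*, of which *Cox6a1* and *Cox8a* are the forms of those subunits found in other tissues. *Cox6a1* lay at 6.63, 7.27 and 7.62 in CMs and 6.87 to 7.09 in ECs. Of 23 genes of fatty acid oxidation 21 were called higher (median 3.87), and of 20 genes of the TCA cycle 19 (median 3.64). *Cpt1b*, the muscle gate for fatty acids into mitochondria, lay at 9.72, 9.65 and 10.12 in CMs and 3.63 to 4.35 in ECs. *Idh2* and *Idh3a*, isocitrate dehydrogenases of the TCA cycle, were higher by 4.71 and 4.28. *Dld*, a shared subunit of the cycle's dehydrogenases, was not called because CM 6 lay at 4.54 and the other CM samples at 8.46 and 8.27.

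Of 26 genes of glycolysis and glycogen 14 were called higher and 1 lower (median 2.25). The lower one was *Pfkfb3*, which makes the activator of phosphofructokinase and drives glycolysis in ECs, at 2.60, 3.10 and 2.18 in CMs and 7.92, 7.65, 7.66 and 7.56 in ECs. Its difference was -5.07 (SE 0.27). The insulin-responsive glucose transporter *Slc2a4* was higher by 5.44, whereas *Slc2a1*, the basal transporter, lay at 4.74, 4.47 and 5.22 in CMs and 5.23 to 5.75 in ECs. *Eno3*, *Ldhb* and *Pgam2* were higher by 6.73, 5.97 and 5.81.

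Genes for the route of fatty acids from the vessel into the myocyte moved in both directions. Of 19 genes, 5 were called higher and 10 lower (median -2.70). The 10 lower genes included several known from capillary endothelium, among them *Meox2* and *Tcf15*, transcription factors of the transport program of cardiac capillaries (-5.27 and -3.39), *Fabp4*, an endothelial and adipocyte binding protein (-3.90), and *Gpihbp1*, which carries lipoprotein lipase to the capillary lumen (-3.38). They also included *Acsl5*, an acyl-CoA synthetase that activates fatty acids as *Acsl1* does (-3.65). Leaving out CM 6 gave -3.76 for *Meox2*, -2.85 for *Fabp4* and 6.37 for *Vldlr*, one of the 5 higher genes. *Fabp3*, the heart fatty acid-binding protein, lay at 10.64, 10.69 and 10.84 in CMs and 2.98, 3.75, 4.77 and 4.67 in ECs. *Dgat2*, which makes triglyceride, *Vldlr*, a lipoprotein receptor, *Acsl1*, which activates fatty acids, and *Slc27a1*, a transporter, were higher by 6.78, 5.54, 4.0 and 4.0. *Lpl*, the lipase made by myocytes for the vessel wall, lay at 12.69, 11.90 and 9.52 in CMs and 9.39 to 10.16 in ECs, and *Cd36*, the fatty acid receptor of both cell types, at 9.94, 9.78 and 6.37 in CMs and 10.29 to 10.88 in ECs. In both, CM 6 was the lowest sample. Without it, *Lpl* was called higher with a difference of 2.37, and the difference of *Cd36* was -0.82 in place of -1.98.

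Among 21 cardiac transcription factors and coactivators 12 were called higher and 2 lower (median 2.36). *Nkx2-5*, a homeobox factor of the heart, lay at 7.73, 7.59 and 7.89 in CMs and 0.65, 1.49, 2.63 and 2.50 in ECs. *Tbx5*, *Hopx* and *Gata4* were higher by 5.10, 4.55 and 2.43. *Ppargc1a*, the coactivator of mitochondrial genes, lay at 8.0, 7.34 and 3.70 in CMs and 0.37 to 1.94 in ECs, a difference of 5.13 that was 6.45 without CM 6. The lower ones, *Mef2a* and *Mef2c*, rested on CM 6. *Mef2a* lay at 7.68, 7.42 and 2.68 in CMs and 8.38 to 8.51 in ECs, and without CM 6 its difference of -2.50 became -0.87. For *Mef2c* the difference of -3.03 became -1.76, and neither was then called. *Srf*, the serum response factor itself, lay at 8.02, 7.83 and 8.34 in CMs and 7.67 to 8.0 in ECs and overlapped.

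The endothelial transcription factors were lower in CMs without exception in these samples, with 26 of 26 called lower (median -4.24), against a background of 26.7% lower calls. The count was 24 without CM 6 and 24 with median centring. *Klf4*, a factor induced by laminar flow, lay at 4.77, 5.06 and 3.59 in CMs and 10.71, 10.58, 11.09 and 10.94 in ECs. *Sox7*, *Fli1* and *Erg*, which maintain endothelial identity, were lower by -5.58, -5.32 and -5.05. *Erg* (chr16:95360210-95530365) lay at 3.73, 4.58 and 1.43 in CMs and 8.35, 8.36, 8.17 and 8.32 in ECs, with CM 6 the lowest sample. Without it the difference was -4.15 for *Erg* and -4.25 for *Fli1*. Of 15 Notch genes 14 were called lower (median -3.63). *Notch1*, the receptor of arterial fate, lay at 4.97, 5.65 and 5.14 in CMs and 9.84 to 10.09 in ECs, and *Jag1* and *Dll1*, ligands, were lower by -5.17 and -4.32, and *Jag1* by -4.27 without CM 6. *Notch2* was the member not called, at 4.82, 4.89 and 3.38 in CMs and 5.47 to 5.53 in ECs.

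Junctions, the glycocalyx and caveolae were represented by 21 genes, of which 20 were called lower (median -3.87). *Cdh5*, the VE-cadherin at chr8:104101625-104144511, lay at 6.96, 8.09 and 7.02 in CMs and 11.84, 11.99, 11.68 and 11.80 in ECs. *Cldn5*, a claudin of tight junctions, lay at 2.34, 3.18 and 2.36 in CMs and 7.27 to 7.79 in ECs, and *Emcn*, a sialomucin of capillaries and veins, at 3.73, 5.30 and 1.99 in CMs and 8.65 to 8.93 in ECs. *Cav1*, which forms caveolae, lay at 6.76, 7.76 and 3.28 in CMs and 10.87 to 11.18 in ECs, and its difference of -5.12 was -3.79 without CM 6. That of *Emcn* was -4.30 without CM 6. *Ehd4*, an ATPase of membrane trafficking, was the exception, at 9.52, 9.67 and 9.58 in CMs and 7.60 to 7.73 in ECs. The groups did not overlap, but the difference of 1.95 was just under the threshold. All 20 genes of arterial, venous and capillary identity were called lower (median -3.91). They included arterial genes (*Efnb2* -5.23, *Gja5* -5.10, *Sema3g* -4.87) and the capillary gene *Car4* (-3.67). *Efnb2* was lower by -4.39 without CM 6.

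Of 23 genes of hemostasis and vessel tone 18 were called lower and 0 higher (median -3.86). *Vwf*, von Willebrand factor, lay at 3.51, 4.40 and 4.55 in CMs and 8.53, 8.76, 9.07 and 8.49 in ECs. *Thbd*, which encodes thrombomodulin, lay at 5.19, 5.65 and 4.50 in CMs and 9.57 to 9.70 in ECs, and *Nos3*, the endothelial nitric oxide synthase, was lower by -4.42. *Calcrl* and *Ednrb*, receptors for adrenomedullin and endothelin, were lower by -5.64 and -5.31, and by -4.26 and -4.50 without CM 6.

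The 3 largest differences among the named genes concerned immediate early genes, which are transcribed within minutes of a stimulus without new protein synthesis. Of 24 compared, 23 were called lower in CMs (median -4.69), and the list mean was 4.06, 4.16 and 4.10 in CMs and 9.55, 9.46, 9.65 and 9.53 in ECs. *Fosb*, an AP-1 subunit at chr7:19302696-19310051 on the minus strand, lay at 0.25, -0.20 and 0.62 in CMs and 13.06, 12.87, 13.31 and 13.10 in ECs. The difference of -12.86 (SE 0.25) was the largest of the named genes in either direction. *Fos*, another AP-1 subunit, lay at 1.82, 2.24 and 2.11 in CMs and 12.18, 12.08, 12.23 and 12.03 in ECs. *Egr1*, a zinc finger factor, lay at 4.06, 4.55 and 3.82 in CMs and 13.62, 13.54, 13.70 and 13.39 in ECs. *Nr4a2* and *Junb* were lower by -8.03 and -6.97. *Ier5* was the member not called, at 6.06, 5.99 and 6.39 in CMs and 7.99 to 8.12 in ECs. The samples within a cell type lay close together for these genes, CM 6 included. ECs and CMs were digested by different procedures, whose part in these levels cannot be told apart from the cell type.

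The heat shock list held calls in both directions. Of 19 genes, 5 were called higher and 6 lower (median -0.18), against a background of 9.58% higher and 26.7% lower calls. The lower count was near its background, and it was 4 without CM 6 and 4 with median centring. The higher genes were small heat shock proteins of muscle, *Hspb7*, *Cryab*, *Hspb8*, *Hspb6* and *Hspb2*, with differences of 5.76, 5.73, 5.26, 5.25 and 3.88. *Cryab*, the alpha-B crystallin that protects desmin, lay at 11.22, 11.93 and 12.77 in CMs and 5.53 to 6.72 in ECs. The lower genes were led by the stress-inducible HSP70 pair. *Hspa1b* lay at -0.95, 0.45 and 1.23 in CMs and 9.0, 7.01, 8.88 and 8.97 in ECs, and *Hspa1a* at 1.75, 1.25 and 2.89 in CMs and 9.47, 7.73, 9.62 and 9.67 in ECs. EC 32 was the lowest EC sample in both. These near-identical genes can share reads. Their J-domain partners *Dnaja1* and *Dnajb1* were lower by -4.56 and -4.25, and *Dnaja1* by -3.76 without CM 6. The constitutive *Hsp90ab1* lay at 10.48, 10.56 and 10.44 in CMs and 10.50 to 10.89 in ECs, and the co-chaperone *Bag3* at 9.53, 9.38 and 10.05 in CMs and 9.03 to 9.81 in ECs, and neither separated the cell types.

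Inflammatory and antigen-presenting genes were lower in CMs. Of 12 genes of leukocyte adhesion and NF-κB signaling 11 were called lower (median -3.71). *Icam1*, which arrests leukocytes on the endothelium, lay at 1.43, 3.18 and 3.23 in CMs and 8.96, 8.79, 9.02 and 8.77 in ECs. *Nfkbiz*, an inducible regulator of NF-κB targets, lay at 1.02, 2.13 and -1.92 in CMs and 9.14 to 9.32 in ECs, with a difference of -8.82 (SE 1.21) that was -7.66 without CM 6. *Tnfaip3* and *Vcam1* were lower by -5.18 and -4.48. *Socs3*, the feedback inhibitor of cytokine receptors, lay at 1.68, 2.24 and 3.45 in CMs and 10.52, 10.53, 10.38 and 10.55 in ECs. Of 27 interferon and antigen presentation genes 26 were called lower (median -3.92). *Irf1*, an interferon-induced factor, lay at 3.36, 3.85 and 3.35 in CMs and 9.70, 9.69, 9.80 and 9.60 in ECs. *Cd74*, the invariant chain of MHC class II, was lower by -5.34, and *B2m*, the light chain of MHC class I, by -5.22, or -4.59 without CM 6. Macrophages and lymphocytes also express the MHC class II genes, and the macrophage list mean without *Cx3cr1* was 0.78, 2.60 and 1.53 in CMs and 5.01, 5.45, 4.64 and 5.02 in ECs. The part of such cells in these differences was not tested. *Ptprc*, the pan-leukocyte CD45, lay at -2.46, 0.62 and -1.92 in CMs and 3.08 to 3.75 in ECs.

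Promoters of 3 genes that were lower in CMs, the VEGF receptor gene *Flt1* and the inflammatory genes *Irf1* and *Tnfaip3*, are shown in the same way as the sarcomere promoters above. Capitals mark TGACGTCA (the cAMP response element) in *Flt1*, the NF-κB site in *Irf1* and *Tnfaip3*, and TATAAA where present.
*Flt1* promoter, chr5:147726012-147726261, minus strand: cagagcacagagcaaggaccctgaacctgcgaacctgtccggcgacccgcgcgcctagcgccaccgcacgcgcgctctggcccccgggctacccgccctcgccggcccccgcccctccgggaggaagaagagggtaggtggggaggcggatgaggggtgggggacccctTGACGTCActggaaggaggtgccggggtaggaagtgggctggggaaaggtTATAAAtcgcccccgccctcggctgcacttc
*Irf1* promoter, chr11:53769764-53770013, plus strand: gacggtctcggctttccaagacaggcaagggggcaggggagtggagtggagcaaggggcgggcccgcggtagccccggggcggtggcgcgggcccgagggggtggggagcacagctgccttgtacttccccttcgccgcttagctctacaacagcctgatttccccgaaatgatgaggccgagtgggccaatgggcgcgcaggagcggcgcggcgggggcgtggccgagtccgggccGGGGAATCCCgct
*Tnfaip3* promoter, chr10:19015411-19015660, minus strand: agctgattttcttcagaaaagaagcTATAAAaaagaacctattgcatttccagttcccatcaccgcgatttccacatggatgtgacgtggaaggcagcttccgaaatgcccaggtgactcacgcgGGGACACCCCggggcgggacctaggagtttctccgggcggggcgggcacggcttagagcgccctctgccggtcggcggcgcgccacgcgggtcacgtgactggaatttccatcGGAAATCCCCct
The NF-κB site begins at -13 in *Irf1* and at -125 and -12 in *Tnfaip3*, and TGACGTCA begins at -81 in *Flt1*. The NF-κB site was found in 65 of 868 promoters of genes called higher (7.49%), 262 of 2246 of genes called lower (11.7%) and 782 of all 8804 (8.88%). It was present in 3 of 6 promoters of the leukocyte adhesion list and 7 of 22 of the interferon list. This was not particular to these lists. The site was in 5 of 11 Notch, 5 of 14 Z-disc and costamere and 6 of 18 TCA cycle promoters. In other lists it was rarer, as in 1 of 46 promoters of oxidative phosphorylation. The sequence TGACGTCA was found in 18 (2.07%), 45 (2.00%) and 245 (2.78%) of the promoters of genes called higher, genes called lower and all genes. It was also found in 3 of 15 immediate early promoters. TATAAA was found in 64 (7.37%), 175 (7.79%) and 516 (5.86%) in the same order.

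Of 38 genes of the extracellular matrix and basement membrane 32 were called lower and 0 higher (median -3.03). *Col4a1*, the collagen of basement membranes at chr8:11198423-11312826, lay at 8.64, 9.93 and 9.76 in CMs and 12.76, 12.86, 12.24 and 12.81 in ECs. *Hspg2*, which encodes perlecan, lay at 8.44, 9.28 and 9.25 in CMs and 12.28 to 12.44 in ECs. *Timp3*, *Col18a1* and *Sparcl1* were lower by -5.34, -4.71 and -4.58. Without CM 6 the difference was -4.50 for *Timp3* and -3.40 for *Sparcl1*. The collagens of fibroblasts were lower as well. *Col1a1* lay at 4.55, 5.81 and 6.29 in CMs and 9.03, 8.90, 8.18 and 9.58 in ECs, while *Col3a1* lay at 5.43, 7.06 and 6.47 in CMs and 7.44 to 8.73 in ECs and was not called (-1.88). The fibroblast list mean was also higher in ECs, as given above, and its part in these differences was not tested. *Lamb2* and *Lama5*, laminin chains of muscle and vessel basement membrane, lay at 8.64 to 9.11 and 7.70 to 8.10 in CMs and at 9.16 to 9.27 and 8.70 to 8.87 in ECs, and neither was called.

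Of 14 integrin genes 7 were called lower (4 with median centring) and 1 higher (median -1.78). The higher one was *Itgb1bp2*, the muscle protein melusin that binds integrin beta 1, at 7.79, 7.96 and 8.22 in CMs and -0.20, 0.55, 1.61 and 1.42 in ECs. *Itga6* and *Itgb4*, which form a laminin receptor, were lower by -5.31 and -5.05, and *Itga6* by -3.96 without CM 6. Of 21 genes of mitosis and replication 10 were called lower (median -2.25), 6 with median centring and 16 with the values as deposited. *Mki67*, a proliferation marker, lay at 0.44, 3.18 and -1.01 in CMs and 4.97, 6.12, 4.89 and 4.13 in ECs, a difference of -4.16 that was -3.22 without CM 6. *Ccnd1*, a cyclin of G1, lay at 4.17, 5.36 and 4.83 in CMs and 8.40 to 8.85 in ECs, while the other D cyclins *Ccnd2* and *Ccnd3* were not called (-0.84 and -1.32).

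Of 20 genes of adrenergic and G protein signaling 3 were called higher and 7 lower (median -0.82). *Chrm2*, the muscarinic receptor of the vagal response, lay at 6.94, 7.11 and 3.56 in CMs and -0.27, -0.49, 1.30 and 0.13 in ECs, and its difference of 5.71 was 6.86 without CM 6. *Gnas*, the stimulatory G protein, lay at 10.54, 10.36 and 10.87 in CMs and 10.59 to 10.66 in ECs. *Prkaca*, the catalytic subunit of protein kinase A, was called at 2.12 but not without CM 6 (1.93). Among 11 long noncoding RNAs 1 was called higher and 6 lower (median -2.17). The higher one was *Neat1*, the RNA scaffold of paraspeckles, at 9.89, 9.85 and 8.07 in CMs and 6.70 to 6.89 in ECs, with a difference of 2.46 that was 3.06 without CM 6. *Malat1*, of nuclear speckles, lay at 9.45, 10.63 and 6.47 in CMs and 8.39 to 8.66 in ECs, with CM 6 below and the other CM samples above the EC range.

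Many proteins have a heart or muscle form and a form used by other cells. Related genes that are not forms of a single protein were paired as well, such as *Gata4* with *Gata2* and *Mef2a* with *Mef2c*. The gene named first in a pair is called the muscle form here, which for lactate dehydrogenase is the heart form *Ldhb*. For such a pair, the shift of the log2 ratio between cell types does not depend on the scaling of a sample, and a fixed transcript length cancels from it. The deviation of CM 6, which moved with gene length, does not cancel. Of 36 pairs listed, 33 were compared. In 31 the ratio of the muscle form to the other form was higher in every CM sample than in every EC sample, with a median shift of 6.65 over the 33 pairs. The ratio of *Myh6* to *Myh9*, a nonmuscle myosin, was 9.10, 7.70 and 8.15 in CMs and -3.53, -3.22, -1.96 and -2.80 in ECs, a shift of 11.20 (SE 0.53). The shift was 10.58 for *Fabp3* over *Fabp4*, 10.47 for *Actc1* over *Actb* (cytoplasmic actin), 10.29 for *Actn2* over *Actn4* and 10.21 for *Atp2a2* over *Atp2a3*, the calcium pump of nonmuscle cells. The ratio of *Fabp3* to *Fabp4* was 3.25, 2.62 and 6.26 in CMs, and its shift was 9.47 without CM 6. The ratio of *Cdh2* to *Cdh5* was 1.54, 0.22 and 0.26 in CMs and -9.10, -9.32, -8.56 and -9.23 in ECs.

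In 11 pairs the muscle form was called higher and the other form lower, as for *Des* over *Vim*, the intermediate filaments, with 5.14 and -4.16, and for *Gata4* over *Gata2*, with 2.43 and -4.17. The ratio of *Gata4* to *Gata2* was 3.34, 3.35 and 3.78 in CMs and -3.14, -3.09, -3.07 and -3.12 in ECs. In several metabolic pairs the heart or muscle form named first was higher while the other form was not called. Examples were *Ckm* over *Ckb* (creatine kinase, 7.0 and -0.97), *Cpt1b* over *Cpt1a* (5.99 and -1.68) and *Ldhb* over *Ldha* (lactate dehydrogenase, 5.97 and 1.81). The exceptions were glycogen phosphorylase and the MEF2 factors. The ratio of *Pygm*, the muscle form, to *Pygb*, the brain form, was 0.59, 0.82 and 0.80 in CMs and 1.33, 0.87, 1.13 and 1.19 in ECs, a shift of -0.39 (SE 0.12), with both forms called higher in CMs by 3.65 and 4.04. The ratio of *Mef2a* to *Mef2c* was 2.54, 1.55 and 0.97 in CMs and 0.89 to 1.45 in ECs and overlapped.

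**Figure D4:**
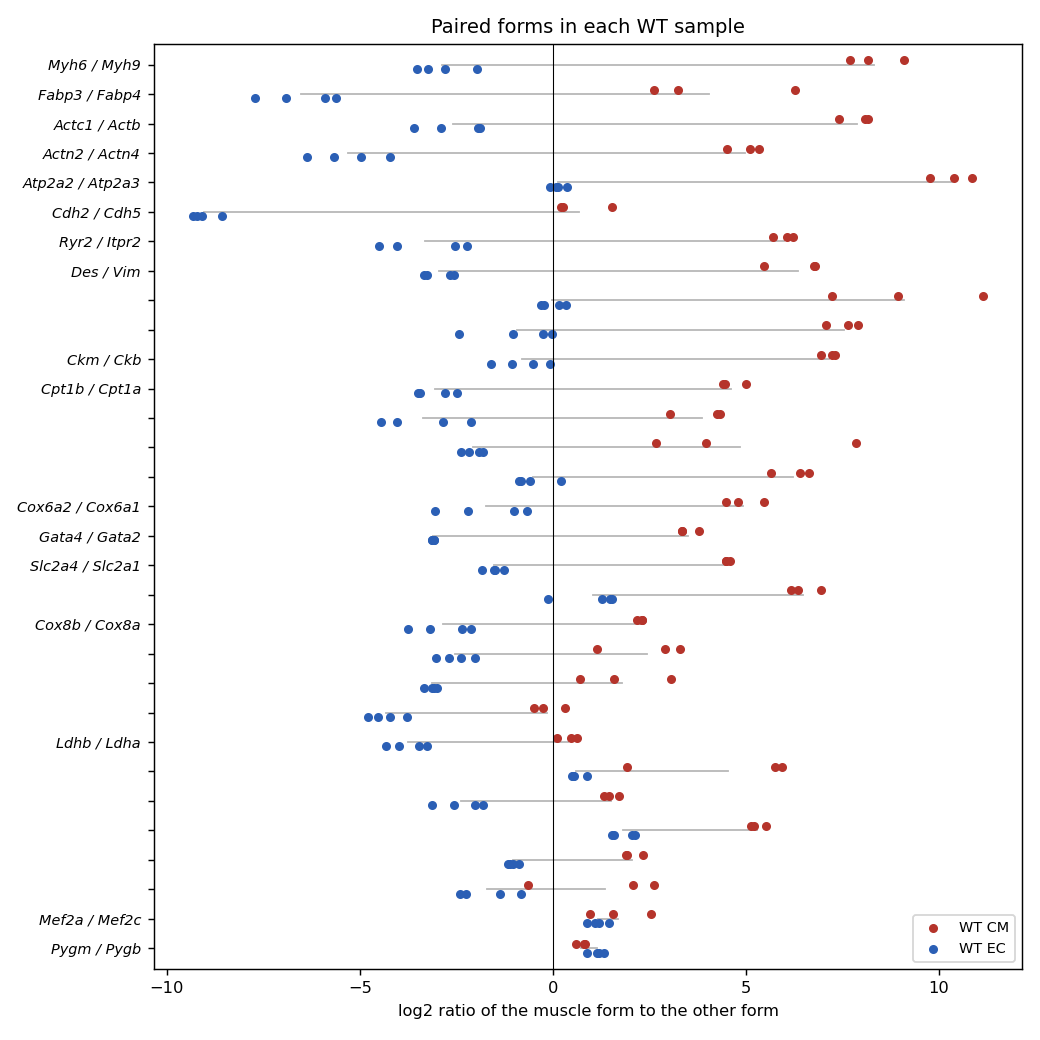
Log2 ratio of the muscle form to the other form (x axis) in each of the 3 WT CM and 4 WT EC samples, 1 pair a row for 31 of the 33 compared pairs, with names only for pairs whose genes the text names. The CM samples lie to the right of the EC samples in 29 of the pairs drawn, up to a shift of 11.20 for *Myh6* over *Myh9*, and do not in *Mef2a* over *Mef2c* and *Pygm* over *Pygb*.

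Signals that can pass between the cell types were laid out as ligand and receptor levels. Of 32 ligands 27 were compared, with 5 called higher and 15 lower in CMs, and of 32 receptors 31, with 1 called higher and 22 lower. The ligands called higher were *Nppa*, *Nppb*, *Vegfa*, *Vegfb* and *Fgf1*. *Vegfb* lay at 9.22, 9.20 and 9.90 in CMs and 4.12, 4.45, 5.08 and 4.94 in ECs, and its receptor *Flt1* (VEGFR1) at 6.46, 7.09 and 4.63 in CMs and 10.62, 10.75, 10.96 and 10.75 in ECs. *Vegfa* lay at 9.17, 9.54 and 7.93 in CMs and 6.14 to 6.38 in ECs, and its receptor *Kdr* (VEGFR2) at 5.84, 7.40 and 4.80 in CMs and 10.32, 10.40, 10.33 and 10.04 in ECs. The ligand was thus the higher gene in CMs and the receptor the lower one in both VEGF pairs. With CM 6 left out the difference was -3.99 for *Flt1* and -3.65 for *Kdr*. The same held for *Nppa* and *Nppb* with the receptor *Npr1*, which was lower by -3.97, and for *Fgf1* (2.40) with *Fgfr1* (-2.81).

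In most other pairs both genes were lower in CMs. They included *Dll4* and *Jag1* (-3.92 and -5.17) with *Notch1* (-4.72), *Efnb2* (-5.23) with *Ephb4* (-3.35), *Angpt2* (-4.0) with *Tek* (-4.82), *Vegfc* (-4.49) with *Flt4* (-4.10), *Cxcl12* (-3.97) with *Cxcr4* (-3.87) and *Apln* (-2.20) with *Aplnr* (-3.0). *Pdgfb*, which recruits pericytes, was lower by -3.86, and its pericyte receptor *Pdgfrb* by -2.60. *Apln* and *Pdgfrb* were not called with median centring. *Edn1*, endothelin 1, lay at 2.07, 2.01 and 0.82 in CMs and 5.66, 5.51, 5.85 and 5.17 in ECs. Without CM 6 the difference was -4.27 for *Jag1*, -4.39 for *Efnb2* and -3.65 for *Tek*. The endothelin receptor *Ednra* lay at 6.68, 6.09 and 5.85 in CMs and 5.20 to 5.57 in ECs, without overlap but with a difference of only 0.82. The receptor called higher in CMs was *Agtr1a*, for angiotensin II, at 5.83, 5.55 and 4.37 in CMs and 1.71 to 2.66 in ECs. *Angpt1*, the ligand that stabilizes vessels, lay at 3.93, 3.01 and 0.25 in CMs and 1.18 to 1.56 in ECs and was called higher only without CM 6, with 2.06 in place of 0.99. These are RNA levels in separate preparations, and no signaling was measured.

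**Figure D5:**
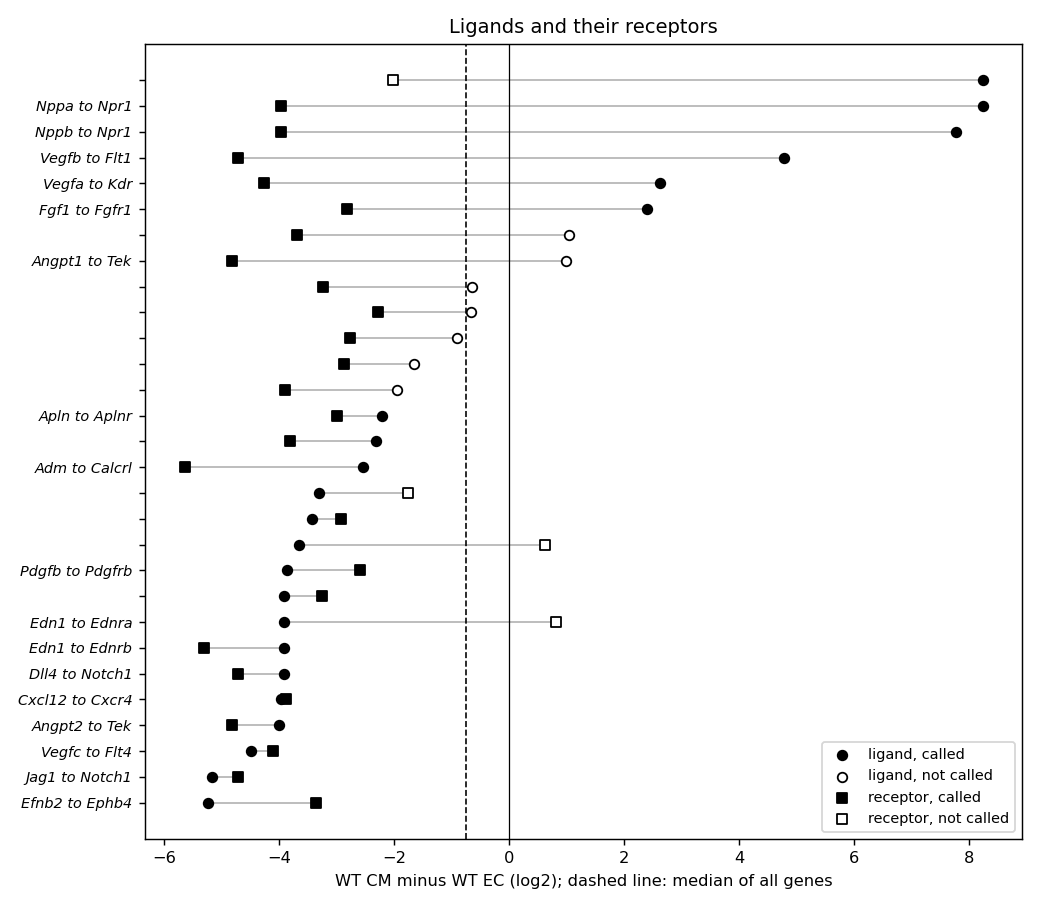
Differences of WT CMs minus WT ECs (log2, x axis) of the ligand (circle) and the receptor (square) of each pair compared, 1 pair a row with names for the pairs in the text, filled where the gene was called, with the median of all genes as a dashed line. *Nppa*, *Nppb*, *Vegfa*, *Vegfb* and *Fgf1* lie on the higher side as ligands while their receptors *Npr1*, *Kdr*, *Flt1* and *Fgfr1* lie on the lower side, and most other pairs lie on the lower side with both genes.

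Some listed genes were present in 1 table only, so they have a level but no difference. The filter by which the authors removed low transcripts is not given in the sources used here. In the CM table only were *Cav3* and *Cavin4*, the muscle caveola genes, with 5.33 ± 0.54 and 5.46 ± 0.58 log2 CPM as deposited (mean ± SD, n = 3), *Plin5*, a lipid droplet coat protein, with 5.62 ± 0.56, and *Irx4*, a ventricular homeobox factor, with 4.65 ± 0.32. The adrenergic receptor genes *Adrb1* and *Adra1a* were there with 3.43 ± 0.10 and 3.17 ± 0.67. In the EC table only were chemokines and cytokines, *Cxcl1* with 6.10 ± 0.13 (mean ± SD, n = 4), *Cxcl10* with 5.54 ± 0.45, *Cxcl2* with 5.40 ± 0.12 and *Il6* with 5.02 ± 0.32. The selectins *Selp* and *Sele*, which let leukocytes roll, were there with 4.60 ± 0.19 and 4.31 ± 0.19, and the immediate early genes *Egr2* and *Egr3* with 6.12 ± 0.06 and 5.98 ± 0.16. Not every such gene belongs to the cell type of its table. The CM table alone also held the epicardial markers *Upk3b* and *Msln*, with 1.71 ± 1.02 and 1.06 ± 0.59. The EC table alone also held the muscle genes *Neb* and *Myl7*, with 0.38 ± 0.21 and 0.09 ± 1.48.

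A few abundant genes did not separate the cell types. *Eef2*, the elongation factor of translation at chr10:81176631-81182498, lay at 10.70, 10.57 and 11.37 in CMs and 10.97, 11.01, 10.96 and 10.96 in ECs, a difference of -0.10 (SE 0.25). *Tns1*, a tensin of focal adhesions, lay at 11.04, 10.95 and 11.27 in CMs and 10.63 to 10.96 in ECs (difference 0.28, SE 0.12).

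The same genes were followed in the samples labelled *Gadlor*-KO, which the WT comparison did not use. They comprise 3 CM and 4 EC samples, also taken after 2 weeks of TAC, from a mouse line that descends from 1 embryonic stem cell clone with the deletion on 1 allele and was bred to homozygosity. Of the 1181 genes called higher in WT CMs, 1167 had the same sign and 184 (15.6%) the same call, and the median difference was 3.06 in WT and 1.16 in *Gadlor*-KO samples. Of the 3290 genes called lower, 2221 had the same sign and 34 (1.03%) the same call, with medians of -3.06 in WT and -0.28 in *Gadlor*-KO samples. The background was 552 genes (4.48%) called higher and 35 (0.284%) called lower in the *Gadlor*-KO comparison. The difference of *Fosb* was -12.86 in WT and -7.61 in *Gadlor*-KO samples, and that of *Myh6* was 7.91 in WT and 3.61 in *Gadlor*-KO samples. The cell type markers moved along with this. The libraries labelled *Gadlor*-KO CM held *Pecam1* at 9.09, 10.36 and 9.98 and *Myh6* at 9.64, 9.06 and 12.06. Mitochondrially encoded transcripts took 49.1% to 62.5% of the CPM of all transcripts in these libraries. The part of these libraries in the smaller differences was not tested.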

How the data were processed

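RNA was sequenced from CMs and ECs isolated after TAC. According to the methods of the study, strand-specific mRNA libraries made with a DNBSEQ kit were read single-end on an Illumina HiSeq instrument, cleaned with FastqCleaner, aligned to mm10 with Bowtie2 and annotated with biomaRt. The submitters' processing notes list Bowtie2, DESeq2 and mm10. Versions, the counting tool and its use of strand are not given in the sources used here. The authors deposited log2 CPM per transcript in a separate table for each cell type, beside columns of their own comparisons (log fold change, mean log CPM, likelihood ratio, p-value and FDR), which were not used. The fibroblast table was not used either.

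Samples were grouped by the labels. There were 25362 transcripts for CMs and 27016 for ECs, of which 24263 were joined by transcript identifier, 250 of them without a gene symbol. For each of 12343 symbols the joined transcript with the highest mean log2 CPM was kept, 17 mitochondrially encoded genes were removed and each sample was rescaled to 1000000 linear CPM. Not compared were 580 symbols found only in the CM table and 1458 found only in the EC table. No pseudocount was added to that of the deposited values. The lowest value was 0.0638 CPM in the CM table and 0.0203 CPM in the EC table, and 146 genes had a CM sample at that value. SDs are between samples, and the SE is that of the difference of the means. Calls need non-overlapping samples and a 4-fold difference, and no test was made between the tables. Gene positions are from GENCODE vM21.

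Named genes were *Myh6* and *Pecam1*, the 10 largest called differences each way with at least 100 CPM in the higher cell type, up to 4 called members each way and 2 members not called per gene list, members called against their list, the genes of all pairs, the 10 most abundant genes per cell type and the 5 most abundant differing by less than 0.5. *Csrnp1*, *Gorasp1*, *Ddx3y* and further list members were named after their values were seen. The members, lists and promoters were chosen with earlier results of these data known. Alternatives were other fold thresholds, pseudocounts of 1 and 5 CPM, a minimum of 1 CPM, 4 other scalings, another transcript choice and leaving out each sample. The prior of the CM table in both tables, leaving out genes that share a span, and the macrophage list without *Cx3cr1* were added after seeing the data. Calls were tested on simulated data. Python 3.11.15, pandas 2.3.3, numpy 2.4.6, scipy 1.17.1 and matplotlib 3.10.9 were used. Some genes among the named ones are not reported here.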

Additional observations from a re-analysis of the deposited data

Results flagged for a closer look

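Among 77 gene levels and list means examined in the 4 WT EC samples, 9 had 1 sample whose gap to the nearest other was larger than Dixon's critical value allows, and chance gives about 1 such case in 20. EC 34 was high in *Atp2a2* (8.54, the others 7.98 to 8.07) and in the mean of the fatty acid oxidation list (4.64, the others 4.33 to 4.35). It was low in *Col4a1* (12.24, the others 12.76 to 12.86), *Col4a2* (11.61, the others 12.13 to 12.16) and *Socs3* (10.38, the others 10.52 to 10.55). EC 32 was low in *Hspa1a* (7.73, the others 9.47 to 9.67) and *Hspa1b* (7.01, the others 8.88 to 9.0) and high in *Pecam1* (10.76, the others 10.63 to 10.64). EC 31 had the highest mean of the endothelial transcription factors (7.57), a gap of about 0.01 in a list whose other samples nearly coincide.

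In 4 gene lists every CM sample lay on one side of the EC samples in WT and on the other side in *Gadlor*-KO samples. The mean difference of CMs minus ECs was -2.56 in WT and 0.35 in *Gadlor*-KO samples for lymphatic markers, -2.26 in WT and 2.68 in *Gadlor*-KO samples for fibroblast markers, -3.13 in WT and 2.63 in *Gadlor*-KO samples for macrophage markers (-3.39 and 2.90 without *Cx3cr1*), and -2.98 in WT and 0.89 in *Gadlor*-KO samples for matrix genes. This difference between genotypes was not tested. Mitochondrially encoded transcripts were removed before the comparison. They took at least 15.5% of the CPM of all transcripts in each WT CM sample, or at least 27.4% with 1 transcript per gene.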

How the results depend on the processing

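With thresholds of 1.5-fold, 2-fold and 16-fold, 2651, 2139 and 320 genes were called higher and 5867, 5183 and 620 lower. A pseudocount of 5 CPM left 1806 genes called lower. Median centring gave 1782 genes called higher and a median difference of -0.14, and keeping mitochondrially encoded genes in the total gave 759 and -1.41. Leaving out each sample in turn gave 1171 to 1314 genes called higher, 2532 to 3866 called lower, a median of -0.92 to -0.39, 545 to 564 called list members (558 with all samples), 31 to 32 pairs with a higher ratio and 233 to 236 of 314 named genes called. CM 6 set the upper limit of the first and the lower limit of the second, and without CM 2 3866 genes were called lower. Without CM 6, 7 named genes lost their call and 9 gained one. Of 233 named genes called, 221 had the same call with median centring, 229 as deposited and 149 at 16-fold. Without the genes that share a span, 917 and 2595 of 9317 genes were called higher and lower. Over all alternatives 295 of 3728 values of named differences moved by more than the spread between samples, and 0 values of a gene called with all samples changed sign. Leaving out a sample could give neither outcome, because that spread includes the sample left out and the groups of a called gene do not overlap. These counts therefore do not measure the weight of CM 6, without which 60 of the 233 named genes called moved by more than 1.5-fold. Nor could the other scalings change the sign of a called gene, since each moved all differences by the same amount, under 2. Leaving out the genes that share a span changed no remaining value. Genes that were not called could change sign, as *Gja1* did without CM 6. No paired analysis was possible because the WT CM and WT EC samples share no replicate number. The 3 CM samples, their shallower depth and the separate tables limit the precision of low values.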

Other observations

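Several abundant or strongly different genes belong to no list described above. *Ptgds*, which encodes the lipocalin-type prostaglandin D synthase, lay at 9.49, 9.57 and 9.95 in WT CMs and 0.47, 2.14, 2.75 and 2.05 in WT ECs, a difference of 7.82. *Apold1*, an early response gene of the endothelium, lay at 2.43, 3.57 and 1.55 in WT CMs and 9.64, 9.43, 9.63 and 9.49 in WT ECs, a difference of -7.03. *Rgs16*, a regulator of G protein signaling, was lower by -7.05. All 3 were separated without overlap.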
